A study of Mus musculus with 42 samples.

Results

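Respiratory complexes II to V are the mitochondrial protein assemblies that carry electrons from succinate and ubiquinol to oxygen and use the resulting proton gradient to make ATP. The part of the liver transcriptome described here is the set of probes for their nuclear-encoded subunits, chosen by gene symbol alone: Sdha, Sdhb, Sdhc and Sdhd for complex II, and every symbol that begins with Uqcr (complex III), Cox4 to Cox8 (complex IV) or Atp5 (complex V). The rule found 47 probes for 41 genes among 17082 probes with deposited normalized values. Complex II had 5 probes for 3 genes (the rule found none for Sdha), complex III 8 for 7, complex IV 17 for 15 and complex V 17 for 16. The rule goes by prefix, so a symbol that matches but names no subunit is kept and counted with its complex. The rule uses symbols and no measured value, though it was written with earlier results of these data known.

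Livers came from C57BL6/N mice killed at 25 months of age, after 6 months on a diet with 14 ppm of Rapa (rapamycin, an inhibitor of the mTOR kinase, encapsulated in the polymer eudragit) or on the control diet, which holds eudragit without the drug. Feeding started at 19 months. There were 12 Rapa males, 10 control males, 11 Rapa females and 9 control females, and each mouse had its own Illumina Mouse Ref8 v2 array. Levels are log2 of the deposited signal after quantile normalization, and ratios are differences of mean levels on the log2 scale.

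Complex II (succinate dehydrogenase) oxidizes succinate and reduces ubiquinone, complex III (the cytochrome bc1 complex) moves electrons from ubiquinol to cytochrome c, complex IV (cytochrome c oxidase) reduces oxygen, and complex V (ATP synthase) makes ATP. Hepatocytes are rich in mitochondria and depend on this chain for gluconeogenesis, ureagenesis and fatty acid oxidation. Many of the nuclear genes for its subunits are known targets of the transcription factors NRF1 and GABP, an ETS family member.

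Of the 43 member probes tested, 10 (23.3%) were decreased in Rapa females, against 9.37% of all tested probes, and none were increased. No member passed the test in males, where 0.653% of all tested probes did. The decreased transcripts lay in every complex: Sdhd and 1 of 3 Sdhb probes in complex II, Uqcrb in complex III, Cox7b and Cox7a2 in complex IV, and Atp5e, Atp5a1, Atp5h, Atp5g2 and Atp5o in complex V. Of these, 4 (Atp5e, Cox7b, Sdhd and Uqcrb) had no overlap between Rapa females and control females, as did 1.6% of all tested probes in that direction. The decreased Sdhb probe was above background in no Rapa female, and the call of Atp5o was lost in 7 of 18 other settings. Atp5g2 and Atp5h did not pass without control females 6 to 9, whose arrays stood apart as described below. The members of these complexes that did not pass the test, among them Atp5b, Cox4i1 and Uqcrc2 with bright probes, had ratios between -0.39 and 0.22.

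The upstream sequences of the 8 decreased genes matched to a RefSeq promoter are given, with and without motifs, to show where the binding motifs of the regulators named above stand. Each is the 250 bases before the transcription start, read 5′ to 3′ on the gene's strand, on the mouse build GRCm38.p6. Capitals mark a match to the ETS motif CCGGAAG or to the NRF1 motif GCGCATGC, on either strand. The sequences are those of Atp5e (chr2:174464102-174464351, minus strand), Sdhd (chr9:50603850-50604099, minus strand), Atp5h (chr11:115419920-115420169, minus strand), Sdhb (chr4:140961021-140961270, plus strand), Atp5g2 (chr15:102671048-102671297, minus strand), Cox7b (chrX:106015450-106015699, plus strand), Cox7a2 (chr9:79759854-79760103, minus strand) and Atp5o (chr16:91931631-91931880, minus strand).
Atp5e: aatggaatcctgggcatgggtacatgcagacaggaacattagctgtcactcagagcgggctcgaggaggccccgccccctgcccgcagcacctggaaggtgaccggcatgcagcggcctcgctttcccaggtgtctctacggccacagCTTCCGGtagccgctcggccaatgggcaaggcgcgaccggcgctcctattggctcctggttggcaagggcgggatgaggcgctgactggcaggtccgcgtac
Sdhd: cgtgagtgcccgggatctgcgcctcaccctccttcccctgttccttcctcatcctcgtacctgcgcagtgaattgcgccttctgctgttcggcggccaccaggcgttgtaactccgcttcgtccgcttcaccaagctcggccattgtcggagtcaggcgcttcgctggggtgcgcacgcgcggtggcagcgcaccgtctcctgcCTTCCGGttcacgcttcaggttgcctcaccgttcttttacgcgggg
Atp5h: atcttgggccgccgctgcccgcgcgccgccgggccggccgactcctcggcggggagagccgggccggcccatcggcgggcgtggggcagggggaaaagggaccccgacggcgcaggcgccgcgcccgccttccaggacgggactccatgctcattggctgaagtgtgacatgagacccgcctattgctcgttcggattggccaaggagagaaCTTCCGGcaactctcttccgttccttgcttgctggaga
Sdhb: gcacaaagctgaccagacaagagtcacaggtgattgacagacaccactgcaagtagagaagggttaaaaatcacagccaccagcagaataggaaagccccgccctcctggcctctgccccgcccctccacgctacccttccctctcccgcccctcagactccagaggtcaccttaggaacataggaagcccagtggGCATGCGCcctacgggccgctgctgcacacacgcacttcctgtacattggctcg
Atp5g2: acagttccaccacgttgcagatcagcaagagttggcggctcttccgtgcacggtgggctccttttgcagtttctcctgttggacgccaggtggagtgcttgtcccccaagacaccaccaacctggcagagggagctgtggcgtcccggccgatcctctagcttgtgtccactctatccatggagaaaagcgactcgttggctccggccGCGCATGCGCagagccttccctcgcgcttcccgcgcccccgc
Cox7b: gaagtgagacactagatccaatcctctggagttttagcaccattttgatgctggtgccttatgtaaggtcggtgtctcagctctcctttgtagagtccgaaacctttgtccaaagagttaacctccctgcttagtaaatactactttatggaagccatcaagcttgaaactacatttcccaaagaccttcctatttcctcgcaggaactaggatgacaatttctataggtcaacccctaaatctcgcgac
Cox7a2: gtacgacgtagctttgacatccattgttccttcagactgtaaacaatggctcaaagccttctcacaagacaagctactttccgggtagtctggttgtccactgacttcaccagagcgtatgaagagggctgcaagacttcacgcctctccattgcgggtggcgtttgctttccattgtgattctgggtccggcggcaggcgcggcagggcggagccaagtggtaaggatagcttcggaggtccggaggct
Atp5o: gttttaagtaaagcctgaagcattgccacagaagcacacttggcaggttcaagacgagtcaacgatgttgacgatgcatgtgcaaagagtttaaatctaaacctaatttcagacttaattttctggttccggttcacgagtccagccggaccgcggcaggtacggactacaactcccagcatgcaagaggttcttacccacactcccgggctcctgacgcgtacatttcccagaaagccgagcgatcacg
Atp5e, Sdhd and Atp5h each carried the ETS letters once, as CTTCCGG on the strand shown. The match began 102 bases before the start in Atp5e, 46 in Sdhd and 38 in Atp5h. Sdhb carried the NRF1 letters from 54 to 47 bases before its start, and its ETS match lay in the 50 bases after the start, which are not shown. Atp5g2 carried the NRF1 letters on both strands in 1 overlapping stretch that began 42 bases before the start. Cox7b, Cox7a2 and Atp5o had none of the motifs searched. RefSeq promoters of 300 bases (250 before and 50 after the start) were matched for 33 of the 41 member genes, and the first listed was used for the 3 genes with several. The ETS motif was found in 4 of 8 decreased genes and 6 of 22 other tested genes, against 9.12% of 27025 promoters of that length. Sdhb, which is in the ETS and the NRF1 counts, is decreased by its dim probe alone. That probe was above background in no Rapa female, and the bright Sdhb probes did not pass the test. NRF1 letters stood in 2 of 8 decreased genes and 4 of 22 others (2.8% of all promoters), and those of YY1 (AAGATGGC) in 0 of 8 and 2 of 22 (2.88%). Overlapping matches count once per promoter. No match of one motif overlapped a match of another in the sequences shown. These are matches of letters, and binding was not measured.

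Testing required a detection p under 0.05 on 9 or more arrays, as many as the control females, and 43 of the 47 member probes (37 genes) were among the 12719 tested. Detection was high, with 39 member probes detected on all 42 arrays. Of the 4 that were not tested, Uqcrfs1 (the Rieske iron-sulfur protein) and Atp5k (subunit e) were detected on 0 arrays, and Cox6a2 and Cox6b2 on 4 each. A probe that was not detected does not show that its transcript was absent from these livers. The threshold for a change was an adjusted p under 0.05 (limma, Benjamini-Hochberg over all tested probes) together with an absolute log2 ratio over 0.15 (1.11-fold).

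Median array signals were 159 to 188 in Rapa males and 146 to 172 in control males, and 111 to 154 in Rapa females and 111 to 152 in control females. Array background, the 5th percentile of signal, was 115.8 to 141 in Rapa males and 107.7 to 128.9 in control males, and 78.4 to 107.7 in Rapa females and 76.5 to 89.7 in control females. Control females 6 to 9 stood apart: across 9720 probes that no array detected, their arrays correlated with each other at an r of at least 0.373, against at most 0.294 for any other pair. The counts of members, of the pathway list and of the marker lists are given with and without these 4 mice, as are the members whose call was lost without them. The Rapa females also fell into mice 1 to 4, with a background of 78.4 to 80.3, and mice 5 to 11, with 102.4 to 107.7. Hepatocyte markers (Apoa1, Ttr, Cyp2e1) were detected on all 42 arrays, and the Alb probe on 27. In whole liver, fewer hepatocytes and less RNA per cell cannot be told apart. The sources name no slide or run, and each p-value sets a difference against the spread between these mice.

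In Rapa females the 10 decreased probes were 23.3% of the 43 members, beside 9.37% of all tested probes that were decreased (21.6% changed in either direction). No member was increased, against 12.2% of all tested probes. The median ratio of the members was -0.12, against 0.02 over all tested probes, and 33 of 43 members lay below 0, against 44.5% of all probes. Groups did not overlap for 4 members, all lower, against 1.6% of all probes. Without control females 6 to 9, 9 members were decreased (background 4.64% lower, 7.01% in either direction), of which 8 were the same probes. The genes lost were Atp5g2 (-0.13, adjusted p = 0.309) and Atp5h (-0.20, adjusted p = 0.123), and a Cox6b1 probe was gained (-0.34, adjusted p = 0.0293). Rapa females 1 to 4 and control females 1 to 5 had array backgrounds of 78.4 to 80.3 and 76.5 to 89.3. Between them 3 members were decreased (background 1.33% in either direction): Atp5e (-0.86), Cox7b (-0.73) and Uqcrb (-0.49). Sdhd had a ratio of -0.87 (SE 0.23, adjusted p = 0.118), Atp5a1 -0.57 and Cox7a2 -0.35, and the other 4 lay between -0.24 and -0.19.

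Markers of other liver cells were compared between Rapa and control females as well. Of 6 Kupffer cell probes, 1 of the 3 for Adgre1 was decreased (-0.56), of 4 endothelial probes Clec4g (-0.34), and of 5 stellate cell probes Col3a1 (-0.56). No B cell probe passed, but their median ratio was -0.55, with Cd79b at -0.76 (adjusted p = 0.069) and -0.57 (adjusted p = 0.0793), and a summed level of 474 to 615.6 in Rapa females and 478.9 to 3627 in control females. None of the 7 neutrophil, 3 T and NK cell and 1 duct probes passed. Of the 8 hepatocyte probes 3 were decreased, at -0.31 and -0.39 for Serpina1a and -0.40 for the dim Alb probe, and the summed hepatocyte level was 148600 to 176100 in Rapa females and 128800 to 174900 in control females. Among these lists only Alb (-0.39, adjusted p = 0.0426) passed without control females 6 to 9, and the B cell median was then -0.0018. Of these lists only the neutrophil level was entered in a fit, as a covariate, given further below. The part of the other lists in the result was not tested.

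**Figure D1:**
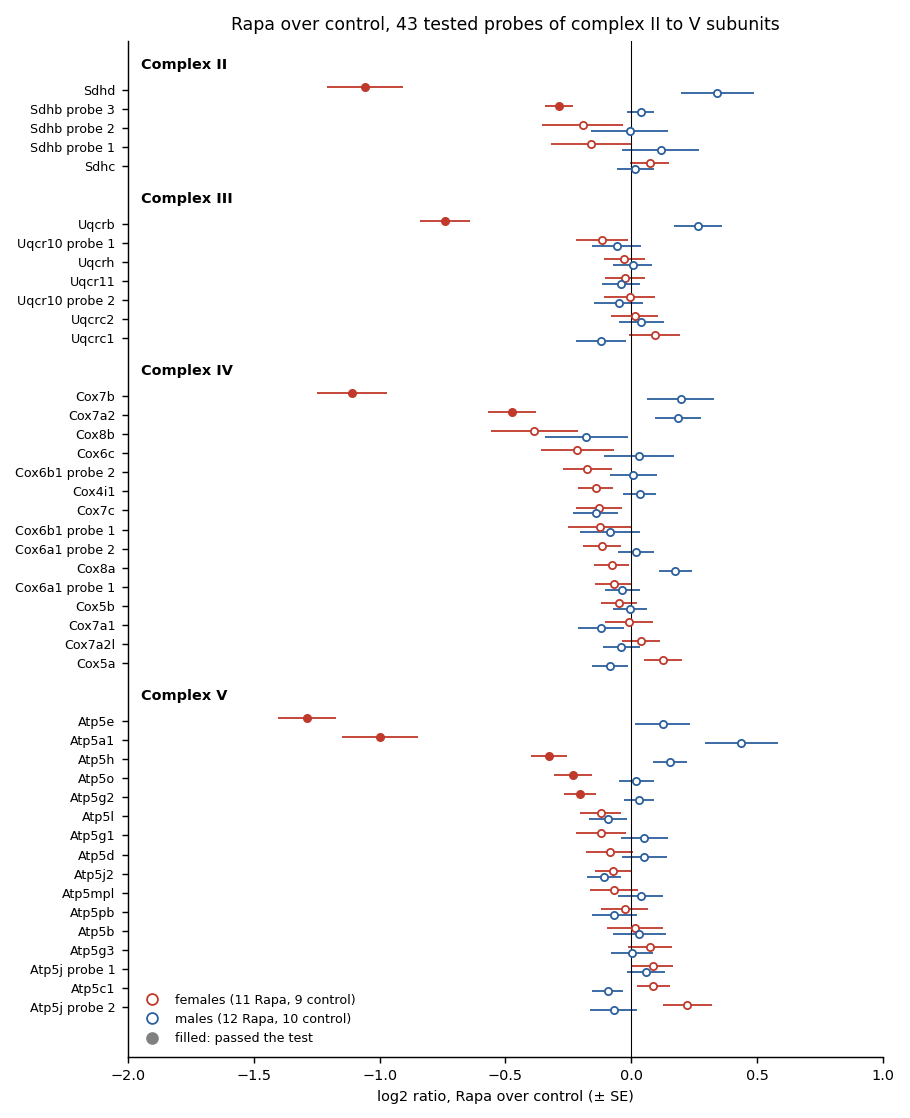
Log2 ratio of Rapa over control (x axis, ± SE) for each of the 43 tested probes, grouped by complex, in females (red, 11 Rapa and 9 control mice) and males (blue, 12 Rapa and 10 control mice). Filled points passed the test: 10 in females, all below 0, and none in males.

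Complex II gave 2 decreased probes of 5 in Rapa females. Sdhd, one of the membrane anchor subunits that hold the ubiquinone site, had levels of 8.74 to 10.17 (median 9.64) in Rapa females, against 10.19 to 11.13 (median 10.60) in control females. Every Rapa female lay below every control female. Sdhd fell by 1.06 (SE 0.15, 2.08-fold lower, adjusted p = 1.66e-06), and by 0.80 (adjusted p = 0.00228) without control females 6 to 9. In males its levels were 10.01 to 11.06 (median 10.70) with Rapa, against 9.74 to 10.63 (median 10.30) in controls. The male ranges overlapped, with a ratio of 0.34 (SE 0.15, adjusted p = 0.291) and 11 of 12 Rapa males above the control mean.

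Sdhb, the iron-sulfur subunit, was read by 3 probes. The dimmest of them had levels of 6.96 to 7.24 (median 7.10) in Rapa females, against 7.11 to 7.69 (median 7.42) in control females, and fell by 0.29 (SE 0.06, adjusted p = 0.000173). That probe was detected in 0 of 11 Rapa females and 5 of 9 control females, and on 19 of 42 arrays in all. Because no Rapa female was above background, only a bound can be given for the fold: at least 1.01-fold lower, with each Rapa array set at the lowest level it detected. The ratios of the 2 bright Sdhb probes were -0.19 (95% CI -0.52 to 0.13, adjusted p = 0.411) and -0.16 (95% CI -0.48 to 0.16, adjusted p = 0.513). Sdhc, the other membrane anchor, had a ratio of 0.07 (95% CI -0.08 to 0.23).

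In complex III, Uqcrb (the ubiquinone-binding protein of the complex) was the decreased member of 7 probes tested. Its levels were 11.56 to 12.08 (median 11.69) in Rapa females, against 12.18 to 13 (median 12.47) in control females, without overlap. Uqcrb fell by 0.74 (SE 0.10, 1.67-fold lower, adjusted p = 4.5e-07), and by 0.59 (adjusted p = 0.000371) without control females 6 to 9. In males the levels were 12.38 to 13.05 (median 12.85) with Rapa, against 12.00 to 12.82 (median 12.62) in controls, with a ratio of 0.27 (SE 0.10, adjusted p = 0.193). The 6 other probes had female ratios between -0.12 and 0.09. They included the core proteins Uqcrc1 (0.09) and Uqcrc2 (0.01), the hinge protein Uqcrh (-0.03), Uqcr11 (-0.03) and both probes of Uqcr10 (-0.12 and -0.01).

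Complex IV gave 2 decreased probes of 15. Cox7b, a small subunit of the oxidase, had levels of 7.27 to 8.27 (median 8.02) in Rapa females, against 8.56 to 9.86 (median 9.05) in control females. The groups did not overlap, and Cox7b fell by 1.11 (SE 0.14, 2.16-fold lower, adjusted p = 1.27e-07). The decrease was -0.92 (adjusted p = 8.77e-05) without control females 6 to 9. Rapa males had levels of 7.96 to 9.00 (median 8.66) and control males 7.81 to 9.01 (median 8.33), a ratio of 0.20 (SE 0.13, adjusted p = 0.585).

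Cox7a2, the subunit VIIa form found in liver, had levels of 8.82 to 9.78 (median 9.39) in Rapa females, against 9.47 to 10.25 (median 9.79) in control females. The ranges overlapped, though all 11 Rapa females lay below the control mean, and Cox7a2 fell by 0.47 (SE 0.10, 1.39-fold lower, adjusted p = 0.000337). In males all 12 Rapa mice lay above the control mean, with a ratio of 0.19 (SE 0.09, adjusted p = 0.389). The 13 other complex IV probes ranged from -0.39 to 0.12 in females. At the low end was Cox8b, a form known from muscle and brown fat, whose ratio of -0.39 (SE 0.17, adjusted p = 0.103) rests on a probe detected in 2 of 11 Rapa females and 4 of 9 control females. Cox4i1, which is needed for assembly of the oxidase, had -0.14 (SE 0.07), Cox5a 0.12 and Cox5b -0.05.

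Complex V held 5 of the 10 decreased probes, out of 16 tested. Atp5e, the epsilon subunit in the central stalk of the F1 motor, had levels of 7.84 to 8.59 (median 8.13) in Rapa females, against 9.23 to 10.39 (median 9.44) in control females. A gap separated the groups, and Atp5e fell by 1.29 (SE 0.11, 2.44-fold lower, adjusted p = 1.21e-10). Of all 12719 tested probes, 50 (0.393%) fell by more than 1 in females, and 3 of them were members (Atp5e, Cox7b and Sdhd). The decrease in Atp5e was -1.13 (adjusted p = 2.09e-08) without control females 6 to 9. Male levels were 8.90 to 9.50 (median 9.30) with Rapa and 8.57 to 9.33 (median 9.20) in controls, a ratio of 0.12 (SE 0.11, adjusted p = 0.70).

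Atp5a1, the alpha subunit of F1 that alternates with the catalytic beta subunit, had levels of 10.58 to 11.77 (median 11.31) in Rapa females, against 11.58 to 12.69 (median 12.22) in control females. The ranges overlapped at their edges, and Atp5a1 fell by 1.00 (SE 0.15, 2.00-fold lower, adjusted p = 3.68e-06), or by 0.76 (adjusted p = 0.00406) without control females 6 to 9. The beta subunit Atp5b, its partner in the F1 ring, had a ratio of 0.01 (95% CI -0.21 to 0.24). In males, Atp5a1 had the largest ratio of any member, at 0.44 (SE 0.14, adjusted p = 0.154), with levels of 11.24 to 12.66 (median 11.84) in Rapa males, against 10.81 to 11.78 (median 11.46) in control males.

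The other decreased complex V subunits changed less. Atp5h, subunit d of the peripheral stalk, had levels of 11.58 to 12.22 (median 11.89) in Rapa females, against 11.98 to 12.51 (median 12.17) in control females, and fell by 0.33 (SE 0.07, adjusted p = 0.000748). Atp5o, the OSCP that joins the stalk to F1, had levels of 7.73 to 8.37 (median 8.19) in Rapa females, against 7.98 to 8.69 (median 8.44) in control females, and fell by 0.23 (SE 0.07, adjusted p = 0.0208). That call was lost without control female 6 (-0.19, adjusted p = 0.0624) and in 7 of 18 other settings, among them the methods' t-test (adjusted p = 0.0926) and the compared arrays alone (adjusted p = 0.0816), though not without control females 6 to 9 (-0.32, adjusted p = 0.00556). Atp5g2 is 1 of the 3 genes for the c subunit of the proton-driven ring. Its levels were 10.28 to 10.73 (median 10.50) in Rapa females, against 10.51 to 10.93 (median 10.62) in control females, and it fell by 0.20 (SE 0.06, adjusted p = 0.0164).

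The other c subunit genes, Atp5g1 and Atp5g3, encode the same mature protein as Atp5g2 and had female ratios of -0.12 (SE 0.10) and 0.07 (SE 0.09). All 3 were detected on 42 arrays. The remaining members of complex V ranged from -0.12 to 0.22, with the gamma subunit Atp5c1 at 0.09, the delta subunit Atp5d at -0.08 and the stalk subunit Atp5pb at -0.03. The highest female ratio of any member was that of the dim probe of Atp5j (coupling factor 6), at 0.22 (SE 0.10, adjusted p = 0.0952). It was not past the threshold.

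**Figure D2:**
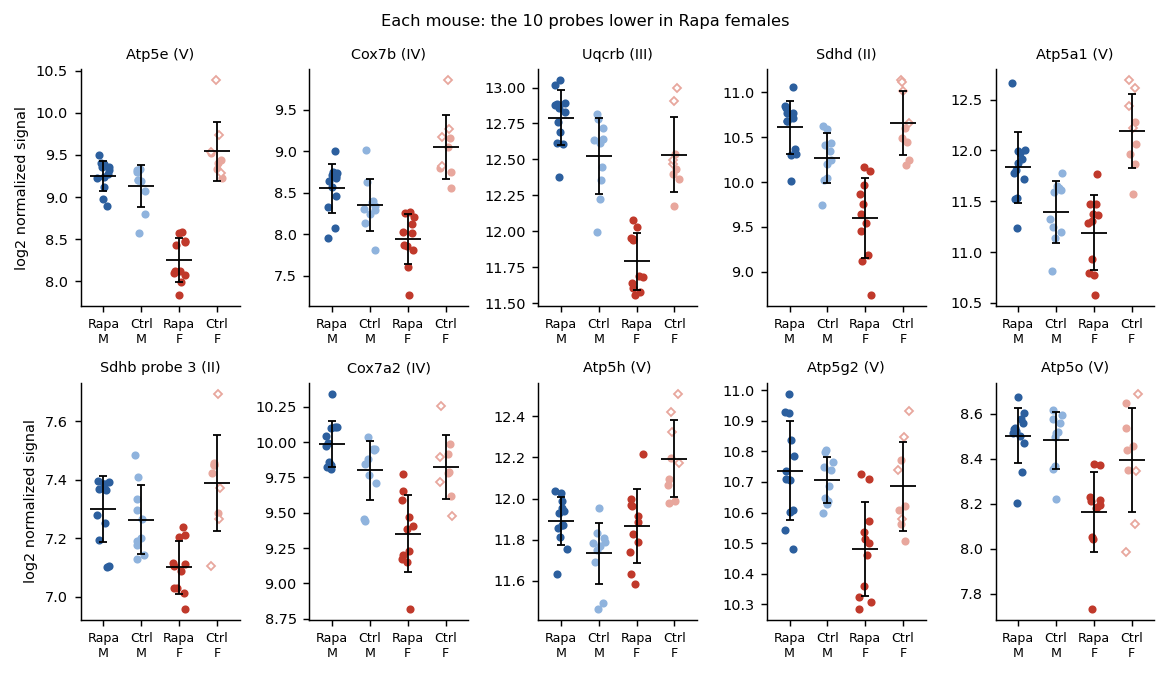
Level (log2 normalized signal) of each mouse for the 10 probes decreased in Rapa females, in Rapa males, control males, Rapa females and control females. Bars are the mean ± SD, and open diamonds are control females 6 to 9. For Atp5e, Cox7b, Uqcrb and Sdhd every Rapa female lies below every control female, while the male groups overlap for all 10.

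In males, 0 of 43 members passed the test, against 0.653% of all tested probes (0.189% higher and 0.464% lower). No member was without overlap between Rapa and control males (background 0.0472%), and without control females 6 to 9, which share in the estimate of the spread, the count was again 0 (background 1.34%). At an unadjusted p under 0.05 there were 6 members (Atp5a1, Uqcrb, Cox8a, Sdhd, Atp5h and Cox7a2), all with ratios above 0, against 12.8% of all tested probes (5.17% above 0), and the methods' t-test called 0 after adjustment. Ratios ran from -0.18 (Cox8b) to 0.44 (Atp5a1), and 18 of 43 members lay below 0, against 51.9% of all probes. All 10 probes decreased in females had a male ratio above 0, from 0.02 (Atp5o) to 0.44. When arrays were centred on their median in place of quantile normalization, the median of all male ratios moved to -0.13 and 7 members were called lower (background 18.6% in either direction): Atp5j2, Atp5c1, Cox7c, Cox5a, Atp5g2, Cox7a2l and Atp5l, with ratios of -0.40 to -0.21 that include this shift.

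The difference between the sexes was tested directly as the Rapa effect in females minus that in males. There were 9 members below 0 past the threshold and none above it (background 8.51% below and 11.9% above 0, or 20.4% either way). The largest differences were those of Atp5a1 (-1.44, SE 0.21, adjusted p = 2.41e-06), Atp5e (-1.41, SE 0.16, adjusted p = 1.73e-08) and Sdhd (-1.40, SE 0.21, adjusted p = 4.54e-06). Cox7b (-1.31), Uqcrb (-1.01), Cox7a2 (-0.66), Atp5h (-0.48), the dim Sdhb probe and Atp5g2 (-0.24) also passed. For the Sdhb probe, not above background in any Rapa female, the measured difference of -0.33 has no settled size. Atp5g2 stood at the threshold (adjusted p = 0.0499), and 27 of 42 fits that left out 1 mouse each did not pass it (adjusted p of 0.0512 to 0.0919). Atp5o, decreased in females, did not pass the test of the difference (-0.25, SE 0.10, adjusted p = 0.0765). With median centring the split became 6 above and 6 below 0, and the median over all probes was 0.19 (background 36.8%). There were again 9, all below 0, without control females 6 to 9 (background 5.12% below, 8.96% either way). Atp5g2 was lost (-0.16, adjusted p = 0.315) and Atp5o gained (-0.34, adjusted p = 0.0208).

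The probes of the decreased members were dimmer than those of the other members. Their mean level over the 42 mice had a median of 10.0 (range 7.26 to 12.4), against 13.1 (7.37 to 14.7) for the other 33. Of the 24 members with a mean level over 12, 1 (Uqcrb) was decreased in Rapa females, and of the 19 at or under 12, 9 were. Over all tested probes the shares were 6.72% of 714 over that level and 9.53% of 12005 at or under it. A probe's brightness depends on its sequence as well as on its transcript, so these levels do not rank the transcripts. The part of brightness in the result was not tested.

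**Figure D3:**
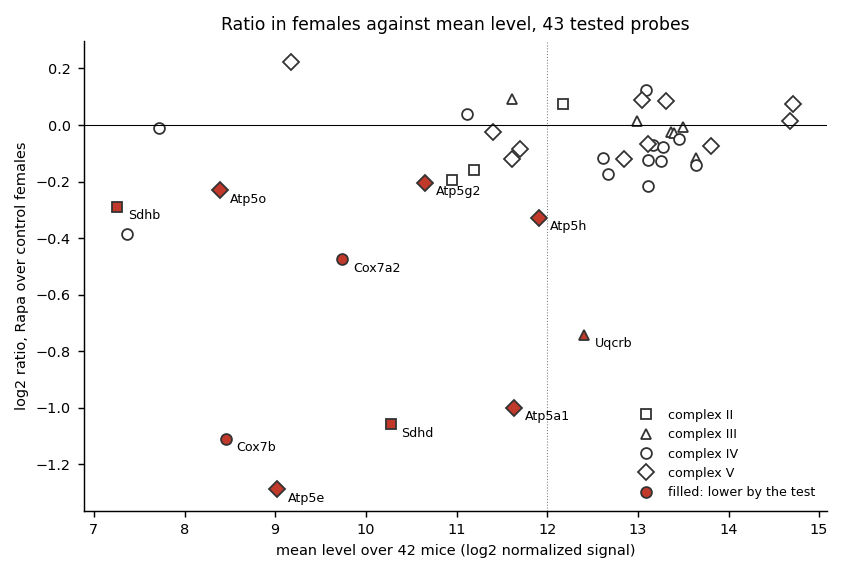
Log2 ratio of Rapa females over control females (y axis) against the mean level of the probe over 42 mice (x axis, log2 normalized signal) for the 43 tested members, with 1 symbol for each complex. Filled points are the 10 decreased probes, of which 1, Uqcrb, lies right of the dotted line at a level of 12.

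Probes of one gene were compared where more than 1 was tested: 3 for Sdhb and 2 each for Uqcr10, Cox6a1, Cox6b1 and Atp5j. For each mouse the level of the dimmer probe was subtracted from that of the brighter, and Rapa mice were compared with control mice by a permutation test (two-sided, exact in females, 100000 resamples in males) for 7 pairs of probes in each sex. None of the 14 comparisons passed after Benjamini-Hochberg adjustment, and 2 had an unadjusted p under 0.05. The pair of Uqcr10 differed by 0.07 ± 0.09 in Rapa females (SD, n = 11) and by 0.19 ± 0.12 in control females (SD, n = 9; exact permutation p = 0.0297, adjusted 0.208). The bright pair of Sdhb differed by 0.21 ± 0.15 in Rapa males and 0.08 ± 0.08 in control males (permutation p = 0.0277, adjusted 0.208).

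Pairs with the dim Sdhb probe cannot show whether the Sdhb probes changed alike in females, since it was above background in no Rapa female. The spread between mice was smaller for this probe than for the bright ones, with SDs of 0.09 in Rapa females and 0.16 in control females, against 0.37 and 0.45 for one of the bright probes. The bright probe of Atp5j had a female ratio of 0.08 and the dim one 0.22, a difference of -0.14 between their effects (exact permutation p = 0.367). Without control females 6 to 9 the Atp5j difference was -0.31 (exact permutation p = 0.0307, adjusted 0.215) and that of Uqcr10 -0.08 (exact permutation p = 0.137), and again none of the 7 female pairs passed after adjustment.

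**Figure D4:**
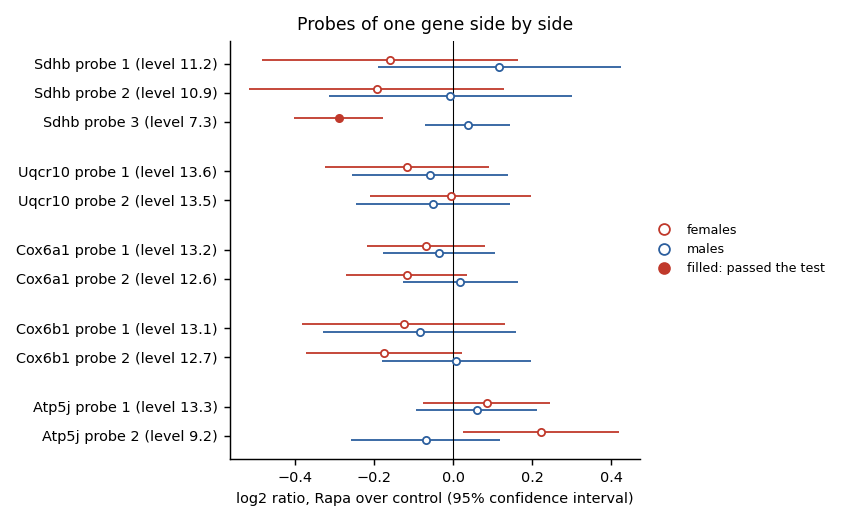
Log2 ratio of Rapa over control with its 95% confidence interval for each tested probe of the 5 genes with more than 1, in females (red) and males (blue), with the mean level of the probe in brackets. The filled point is the dim Sdhb probe in females, which was above background in no Rapa female.

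Of the tissue-specific forms, those known mainly from heart and muscle (Cox6a2, Cox7a1, Cox8b) or testis (Cox6b2) had fewer arrays with detection than their counterparts. Cox6a1 was detected on 42 arrays by both probes and Cox6a2 on 4. Cox6b1 was likewise detected on 42 and Cox6b2 on 4, while Cox7a2 was detected on 42 and Cox7a1 on 39, and Cox8a on 42 and Cox8b on 16. Cox7a1, the muscle form of subunit VIIa, had a female ratio of -0.01 (SE 0.09), against -0.47 for Cox7a2. Cox4i2 and Cox8c were not analysed here.

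Between the sexes on the control diet, 11 members differed (background 40.2%). Control males were higher in 6 (background 22.5%) and lower in 5 (17.7%). These comparisons use the same control females as the diet comparison in females, so the values below are not independent of it.

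Atp5a1 had levels of 10.81 to 11.78 (median 11.46) in control males, against 11.58 to 12.69 (median 12.22) in control females, with a ratio of -0.79 (SE 0.15, adjusted p = 6.77e-05). Cox7b levels were 7.81 to 9.01 (median 8.33) in control males and 8.56 to 9.86 (median 9.05) in control females, a ratio of -0.69 (SE 0.14, adjusted p = 0.000159). For Atp5h the levels were 11.46 to 11.95 (median 11.78) in control males and 11.98 to 12.51 (median 12.17) in control females, without overlap (3.07% of all probes were lower without overlap), and the ratio was -0.46 (SE 0.07, adjusted p = 3.03e-06). Of these, Atp5h alone separated the control sexes among the 43 members.

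Atp5e had levels of 8.57 to 9.33 (median 9.20) in control males and 9.23 to 10.39 (median 9.44) in control females (-0.41, SE 0.12, adjusted p = 0.00434). Sdhd had 9.74 to 10.63 (median 10.30) in control males and 10.19 to 11.13 (median 10.60) in control females (-0.39, SE 0.16, adjusted p = 0.0419). Both ranges overlapped, and neither gene differed between the control sexes without control females 6 to 9 (Atp5e -0.26, adjusted p = 0.105, and Sdhd -0.13, adjusted p = 0.635).

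The members higher in control males came from complexes III, IV and V. Atp5g3, a c subunit gene, had levels of 14.53 to 15.02 (median 14.95) in control males, against 13.97 to 14.89 (median 14.44) in control females, a ratio of 0.40 (SE 0.09, adjusted p = 0.000438). Uqcr10, a small subunit of complex III, was higher by 0.29 on both probes (adjusted p = 0.0205 and 0.0249). Uqcr11 (0.25, adjusted p = 0.0112) and Atp5l, subunit g of the membrane sector (0.25, adjusted p = 0.0121), followed. The 6th was 1 of the 2 Cox6a1 probes (0.24, adjusted p = 0.011), named here to complete the count. Without control females 6 to 9, Atp5g3 (0.22, adjusted p = 0.0758), both Uqcr10 probes (0.20, adjusted p = 0.255, and 0.17, adjusted p = 0.28) and Uqcr11 (0.16, adjusted p = 0.209) no longer passed.

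Without control females 6 to 9, 6 members differed between the control sexes (2 higher and 4 lower in control males, background 25.7%). With array background as a covariate there were also 6 (5 higher and 1 lower, background 25.0%). Background was 107.7 to 128.9 in control males and 76.5 to 89.7 in control females, so the 2 ranges do not overlap, and its part in the sex difference cannot be told apart from sex. With median centring 17 members were higher and 2 lower (background 48.8%), and the median over all probes was 0.14. Neutrophil markers also moved with sex: 5 of 7 tested were lower in control males, with a summed level of 1309 to 5284 in control males and 1705 to 86120 in control females. None of the 7 passed between the control sexes without control females 6 to 9. Between Rapa females (1262 to 63520) and control females none of the 7 changed. With their mean level as a covariate, 11 members differed between the control sexes (2 higher and 9 lower, background 37.3%). Between Rapa and control females 11 differed in that fit (1 higher and 10 lower, including all 10 above, background 24.8%).

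**Figure D5:**
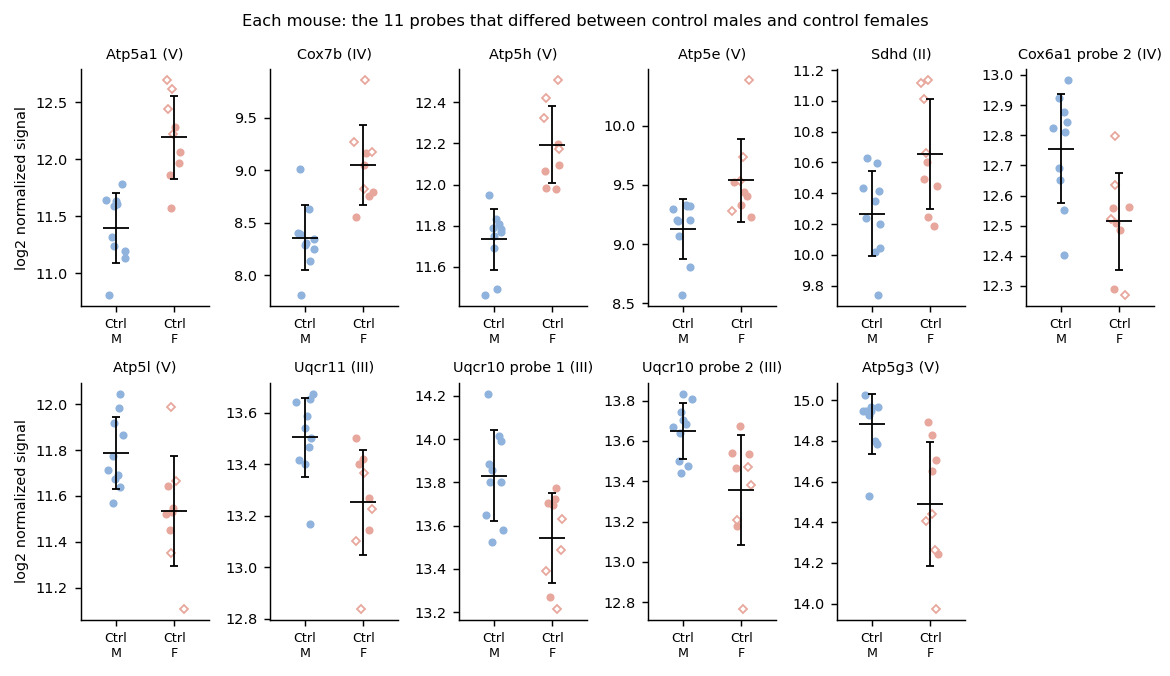
Level (log2 normalized signal) of each control male and control female for the 11 probes that differed between them, ordered by ratio. Bars are the mean ± SD, and open diamonds are control females 6 to 9. Atp5h is the 1 probe without overlap.

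The other genes of the pathway, listed by role, numbered 35 genes with 45 tested probes. In Rapa females 6 were increased and 5 decreased, with a median ratio of -0.02, and in males none changed. These counts lie close to the 12.2% and 9.37% of all tested probes. Without control females 6 to 9, 3 calls were kept, those of a Cycs probe (-0.60, adjusted p = 0.0177) and of Lrpprc (0.28, adjusted p = 0.0154, and 0.27, adjusted p = 0.0283), and the 8 others named below were lost, with Gabpa at 0.16 (adjusted p = 0.0547), Uqcc2 at -0.25 (adjusted p = 0.184) and Ppargc1b at 0.24 (adjusted p = 0.362). Cytochrome c, which carries electrons between complexes III and IV, was read by 2 Cycs probes with ratios of -0.60 (SE 0.13, adjusted p = 0.000898) and 0.11 (SE 0.07, adjusted p = 0.249). Cyc1, the cytochrome c1 subunit of complex III that the rule does not cover, had a ratio of 0.05 (SE 0.09). Among the assembly factors, Uqcc2 (complex III) fell by 0.39 (SE 0.10, adjusted p = 0.00325) and Cox11 (copper insertion into complex IV) by 0.19 (SE 0.07, adjusted p = 0.0481). Atpif1, the inhibitor of ATP hydrolysis by complex V, fell by 0.34 (SE 0.12, adjusted p = 0.0345).

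In the other direction, 2 of the 3 probes of Lrpprc, which stabilizes mitochondrial transcripts, were increased, by 0.42 (SE 0.08, adjusted p = 0.000127) and 0.28 (SE 0.07, adjusted p = 0.00217). A probe of Coa5 was also increased, by 0.24 (SE 0.08, adjusted p = 0.0291). The 2 probes of Atpaf2, an assembly factor of F1, passed in opposite directions, at 0.19 (adjusted p = 0.0421) and -0.28 (adjusted p = 0.0307). Of the regulators, Gabpa (the DNA-binding subunit of GABP) rose by 0.19 (SE 0.05, adjusted p = 0.00152) and the coactivator Ppargc1b by 0.39 (SE 0.12, adjusted p = 0.0169), while Nrf1 had a ratio of 0.01 (SE 0.09) and Ppargc1a 0.17 (SE 0.09, adjusted p = 0.147).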

How the data were processed

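The signals of 42 Illumina Mouse Ref8 v2 arrays were deposited by the authors as linear bead intensities from Genome Studios, without normalization, with a detection score as a fraction, which is 1 at the highest confidence. Deposited beside them were the authors' log2 values, quantile-normalized in Matlab, for 17082 of the 25697 probes. No genome build is given for the probes in the sources used here, and none of their coordinates are used. Gene symbols are those of the platform annotation (16027 probes with 1 symbol, 1055 with none).

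Here, log2 intensities of all probes and arrays were quantile-normalized. Each signal column correlated with the deposited log2 column of its own mouse at 0.9975 or more, and with other mice at 0.9946 or less. The 4 groups were compared in 1 limma fit of the 42 arrays (limma 3.58.1, R 4.3.3), and p-values were adjusted by the Benjamini-Hochberg method over 12719 tested probes. The fit was tested on simulated data. Probe pairs were compared with scipy 1.17.1. Per-mouse values are given for members changed in females or males, for members that differ between control sexes and for genes with several probes. Members and lists were chosen with earlier results of these data known. Alternatives were the deposited log2 values, other background corrections, scalings, filters, tests, weights, blocks and thresholds, 1 probe per gene, and leaving out mice. Those without control females 6 to 9 or with covariates were chosen after seeing the data. The number of arrays limits the precision.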

Additional observations from a re-analysis of the deposited data

Results flagged for a closer look

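In 9 members the Rapa effect in females differed from that in males by the test of the difference itself (limma, Benjamini-Hochberg adjusted p under 0.05), all below 0, against 8.51% of all tested probes below 0 and 20.4% either way. The differences, female minus male, were -1.44 for Atp5a1, -1.41 for Atp5e, -1.40 for Sdhd, -1.31 for Cox7b, -1.01 for Uqcrb, -0.66 for Cox7a2, -0.48 for Atp5h, -0.33 for the dim Sdhb probe and -0.24 for Atp5g2.

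Single mice far from their group were looked for in 46 groups (23 probes, control males and control females), and 6 were found. Chance gives about 1 in 20 independent groups, but these were not independent, since all probes were read on the same mice. Control male 3 was the lowest of its group in 5 of them, with a level of 9.87 (next 11.03) and 9.91 (next 11.09) on the bright Sdhb probes, 12.34 on a Cox6b1 probe (next 12.67), 14.53 on Atp5g3 (next 14.79) and 8.69 on the dim Atp5j probe (next 9.03). It was also the lowest control male for 7 of the 10 probes decreased in Rapa females. Control female 6 was the highest of its group for Atp5e, at 10.39 (next 9.74).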

How the results depend on the processing

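The 10 decreased members in Rapa females numbered 7 to 11 under other processing and 9 to 11 when 1 mouse was left out. All 10 stayed below 0 in every setting run. The background under other processing ran from 7.01% to 24.8% in either direction, so the counts are not alike between settings. In Rapa females 1 to 4 against control females 1 to 5, 3 passed (background 1.33% in either direction). Atp5g2, Atp5h and Atp5o did not pass with median centring. In males the count was 0, except 7 with median centring (background 18.6%) and 1 (Atp5a1, 0.42) with array weights (3.86%), and 0 to 0 without single mice. For the difference between the sexes it was 6 to 12 under alternatives (background 4.39% to 36.8%) and 8 to 10 without single mice. Atp5g2 turned to 0.10 (adjusted p = 0.383) with median centring and to 0.0209 (adjusted p = 0.954) with 3 principal components of never-detected probes as covariates. The 11 members that differed between control sexes became 19 with median centring (background 48.8%) and 9 to 13 without single mice. They became 6 without control females 6 to 9 (25.7%) and 6 with array background as a covariate (25.0%). They became 0 with the 3 components, where 0% of all tested probes passed. With the 3 components 10 of them changed sign: Sdhd 0.86, Atp5a1 0.80, Cox7b 0.45, Atp5h 0.42, Atp5e 0.20, Cox6a1 -0.031, Uqcr11 -0.32, Uqcr10 -0.55 and -0.999, and Atp5g3 -1.27, with standard errors of 0.42 to 0.91. Since no tested probe passed between the control sexes in that fit, and its standard errors were this wide, it cannot decide the sign of these ratios. The cause was not tested.

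The replicate block gave 11 changed members in females (1 increased, background 20.8%) and 0 in males (0.299%). It gave 10 for the difference (19.8%) and 12 between control sexes (39.8%). Deviations of same-numbered mice correlated at -0.496 to 0.318 in males (over 0.1 in 6 of 10 pairs) and -0.372 to 0.49 in females (6 of 9 pairs). These values do not settle whether the numbers pair the mice. Probe pairs gave 0 calls in all settings. Dim probes, such as those of Sdhb and Cox8b, are limited by signal over background.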
